A study of Mus musculus with 549 samples.

Results

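Nuclear-encoded genes of the mitochondrial respiratory chain were followed across cartilage, bone and lymph node of mice whose tibia had been loaded. They were taken by symbol: every entry beginning with Nduf, Uqcr, Cox4, Cox5, Cox6, Cox7, Cox8 or Atp5, together with Sdha, Sdhb, Sdhc and Sdhd. Of 23385 named genes per table, 92 matched, and 85 of these averaged at least 10 CPM (reads scaled per-million of the library total) in 1 or more of the 12 tables. Between 77 and 84 genes were members in any 1 table, and 76 were members in all 12. All members of a table passed the filter on low values used for testing.

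The threshold fell between genes of similar level. In cartilage after 1 week of loading, Ndufaf1 and Ndufaf5 lay just inside it, at 10.6 and 11.9 CPM, and Atp5s and Ndufaf6 just outside, at 8.70 and 7.18. Below it in every table were 7 genes: Atp5g2, Atp5s, Cox4i2, Cox7b2, Cox8c, Ndufaf6 and Ndufs5, the last listed at 0 throughout. Cox4i2, the lung and hypoxia isoform of cytochrome c oxidase subunit 4, ranged from 1.49 to 8.05 CPM between tables.

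The animals were male C57BL/6J mice, 18 weeks old at the start, that received intermittent parathyroid hormone (PTH 1-34, a bone-forming agent) or saline for 8 weeks. Baseline mice were taken then, at 26 weeks of age, as a saline and a PTH group. The other mice had the left tibia loaded cyclically, to a peak of 9 N, for 1 or 2 weeks (27 or 28 weeks of age) while they received saline or alendronate, a bisphosphonate that inhibits bone resorption. The treatment groups are called vehicle (saline then saline), PTH (PTH then saline), alendronate (saline then alendronate) and PTH-alendronate (PTH then alendronate), and the right limb of the same mice was the contralateral control. RNA came from tibial cartilage, from metaphyseal cortical and cancellous bone after the marrow had been removed, and from the inguinal lymph node of each side, 1 library per sample without pooling.

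Libraries held 3630 to 3557793 reads (median 1551090), and the 477 libraries of at least 100000 reads, of 505 with values, entered the tests. Sums of marker genes fitted the labelled tissues for chondrocytes in cartilage (medians of 9620 to 29520 CPM by week), but cartilage libraries also carried neutrophil and marrow genes (31060 to 49280) and cortical bone carried skeletal muscle genes (19530 to 31600). In 7 cartilage libraries a T cell list reached 368 to 994 CPM, against at most 145 in the other cartilage libraries of the same weeks. They were 1 vehicle contralateral, 1 PTH-alendronate contralateral and 2 PTH libraries at 1 week, 2 PTH contralateral libraries at 2 weeks and 1 baseline PTH library. In lymph node, 1 vehicle contralateral library at each of weeks 1 and 2 held neutrophil genes at 36300 and 20300 CPM, against at most 1620 in the others. The library of week 1 went against its label in other lists too: T cell genes summed to 89.5 CPM (1020 or more in the others), B cell genes to 193 (855 or more), chondrocyte genes to 5340 (at most 23.4) and osteoblast genes to 3830 (at most 8.76). Called counts that moved are given beside the result, with no share of all genes, for refits without these 9 libraries. Counts from other refits and other test tools also stand without that share. Without them 0 members were called, as with them, for loading in PTH mice in cartilage at 1 and 2 weeks, for the PTH difference in response and for every lymph node contrast at 1 week.

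The respiratory chain passes electrons from NADH and succinate to oxygen and uses the energy to make ATP. Complex I (Nduf genes) oxidises NADH, complex II (Sdh) oxidises succinate, complex III (Uqcr) reduces cytochrome c, complex IV (Cox) reduces oxygen and complex V (Atp5) is the ATP synthase. Complex IV has tissue isoforms: Cox6a2, Cox7a1 and Cox8b are the forms of striated muscle, and Cox6a1, Cox7a2 and Cox8a the widely expressed ones. Articular chondrocytes live at low oxygen and rely mainly on glycolysis, whereas muscle is rich in mitochondria. All levels below are normalised reads, and differences are log2 folds (log2 of value + 1) ± SE from limma, with Benjamini-Hochberg adjustment over all genes tested and a threshold of 0.05.

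Before loading, PTH pretreatment was followed by no member past the threshold in cartilage, although 8.72% of all 12705 genes tested there were called higher and 6.1% lower. Of 80 members, 0 passed in limma, 6 had an unadjusted p below 0.05, edgeR called 0 and DESeq2 called 1 higher. The median log2 fold of the members was -0.06, against 0.02 for all genes. The members nearest to the threshold were Ndufb10 (complex I accessory subunit, log2 fold 0.35 ± 0.13, limma adjusted p = 0.0594), Cox6a1 (-0.37 ± 0.14, limma adjusted p = 0.0644) and Ndufa3 (-0.34 ± 0.13, limma adjusted p = 0.0842). Without the library with lymphoid markers, 1 member was called lower. In cortical bone, where 0.0076% of all genes were called lower, and in cancellous bone limma and edgeR called 0 of 80 and 0 of 81 members, with 0 and 4 at an unadjusted p below 0.05. In cancellous bone the muscle isoform Cox6a2 had a lowest, median and highest level of 35.7, 162.5 and 499.5 in 7 vehicle libraries and of 3.86, 36.6 and 104.5 in 8 PTH libraries, with overlap. Its log2 fold of -2.29 ± 0.59 and that of Cox7a1 (-1.77 ± 0.65) did not pass (limma adjusted p = 0.516 and 0.85). The skeletal muscle list was at 900.7 to 21930 CPM in vehicle and 177 to 4294 in PTH libraries (0 of 20 genes called, median -2.65), and its part was not tested.

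In lymph node 1 member was called before loading. Ndufa7, an accessory subunit of complex I, had a lowest, median and highest level of 63.7, 118 and 178 in 16 vehicle libraries and of 112.3, 161 and 204 in 16 PTH libraries. Its groups overlapped, and it rose with PTH (log2 fold 0.44 ± 0.11, limma adjusted p = 0.0424), the only 1 of 77 members called where 0.426% of all genes were called higher. It did not pass without the low-value filter, in left limbs alone or in right limbs alone, and array weights called 18 members. By their codes the 32 libraries came from 16 animals. The animal block had a correlation of 0.0109, so the 2 nodes of a mouse counted almost as separate samples. Positive folds were seen for 72 of 77 members, 30 had an unadjusted p below 0.05, and the median was 0.22 against 0.01 for all genes. Of the vehicle nodes, left replicate 2 held adipocyte genes at 15670 CPM (at most 2179 in the others), and left replicate 6 had a mean member level of 6.718 on the log2 scale (7.102 to 7.51 in the other vehicle nodes). Without both, 4 members were called higher, Ndufa7 among them (0.33, limma adjusted p = 0.0481), and the median was 0.19. No share of all genes stands beside this count or that of array weights. These counts are no result about the members in particular. Complexes III, IV and V had positive folds for 8 of 8, 12 of 12 and 14 of 14 subunits. Left and right limbs gave 0 called members in any tissue before loading. In cartilage 67 of 80 members had a lower value on the left, with a median of -0.11 and 4 members at an unadjusted p below 0.05.

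After 1 week of loading, cartilage of vehicle mice had lower levels on the loaded side for 78 of 84 members. The loaded limb was always the left, and most cartilage members were also lower on the left before loading, as given above. The part of side in the loading folds was not tested. Ndufs1, the largest core subunit of complex I (chromosome 1, 63143596 to 63176833, minus strand, mm10), had a lowest, median and highest level of 110.5, 140 and 162 in 7 loaded limbs and of 150, 257 and 375 in 7 contralateral limbs. The 2 ranges met only at their edges, and Ndufs1 fell (log2 fold -0.76 ± 0.19, limma adjusted p = 0.0168). Uqcrc2, a core protein of complex III, measured 198, 281 and 314 in the loaded limbs and 266, 425 and 777 in the contralateral limbs, so the ranges overlapped. It fell by 0.68 ± 0.19 on the log2 scale (limma adjusted p = 0.0449). Cox5a, a nuclear subunit of complex IV, measured 205, 439 and 517 against 446, 710 and 1292, again with overlap, and its log2 fold was -0.76 ± 0.21 (limma adjusted p = 0.0498).

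These 3 members were called lower and 0 higher, in a comparison where 0.312% of all genes were called lower and 1.01% higher. The median log2 fold was -0.38 for the members and -0.04 for all genes, and 40 members had an unadjusted p below 0.05. The direction held over the complexes. Negative folds were found for 7 of 7 core and 28 of 28 accessory subunits of complex I (medians -0.54 and -0.39), 3 of 4 of complex II (-0.52), 8 of 8 of complex III (-0.42), 11 of 12 of complex IV other than the muscle isoforms (-0.36) and 13 of 13 of complex V (-0.37). Sdha, the flavoprotein subunit of complex II (-0.54 ± 0.15), Uqcrc1 (-0.47 ± 0.22), Cox4i1 (-0.38 ± 0.15) and Atp5b, the catalytic beta subunit of the ATP synthase (-0.53 ± 0.19), did not pass, with limma adjusted p of 0.0664, 0.45, 0.257 and 0.168. A fit of the vehicle limbs alone with a replicate block, which changes both the libraries fitted and the block, kept 0 of the 3 calls. Without the libraries with lymphoid markers 10 members were called lower, the 3 among them.

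**Figure D1:**
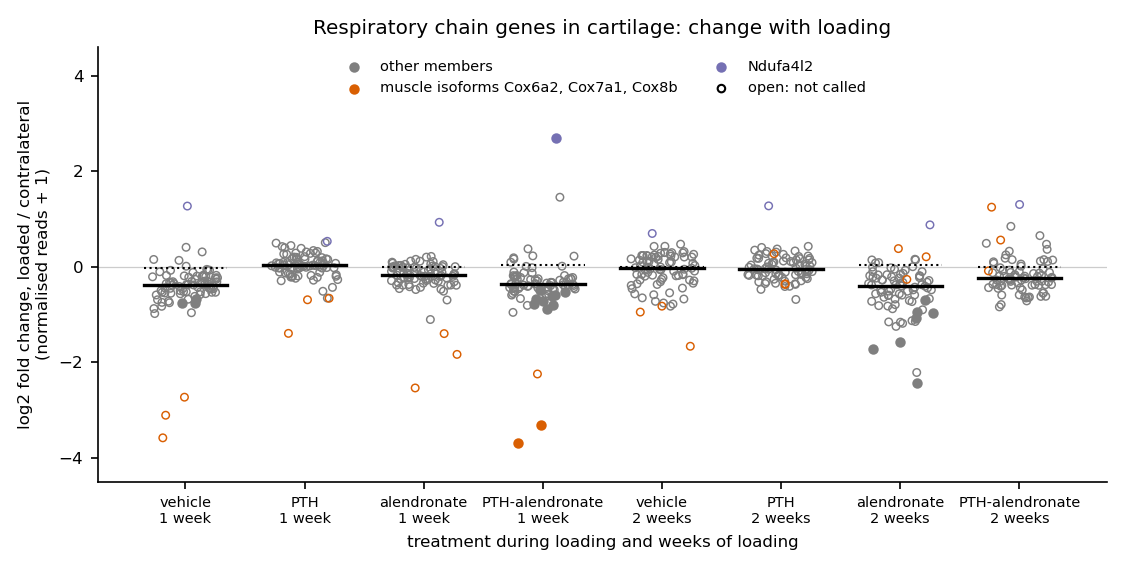
Log2 fold of loaded over contralateral limb (vertical axis) for each member gene in cartilage, by treatment, at 1 and 2 weeks. Filled points passed the test, orange points are the muscle isoforms, purple is Ndufa4l2, black lines are medians of the members and dotted lines medians of all genes. The members lie mostly below 0 in vehicle and PTH-alendronate mice at 1 week (medians -0.38 and -0.37) and in alendronate mice at 2 weeks (-0.41), and near 0 in PTH mice (0.03 and -0.05).

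PTH-alendronate mice had 11 members lower and 1 higher in the loaded limb at 1 week (6 and 1 with edgeR and with DESeq2), where 3.25% of all genes were called lower and 7.16% higher. Sdha (chromosome 13, 74322254 to 74350280, minus strand, mm10) had a lowest, median and highest level of 156, 242 and 468 in 7 loaded limbs and of 355, 438 and 505 in 6 contralateral limbs. All loaded limbs but 1 lay under all contralateral limbs, and Sdha fell by 0.79 ± 0.16 on the log2 scale (limma adjusted p = 0.000564). Ndufb9 and Ndufa9, accessory subunits of complex I, fell by 0.88 ± 0.24 and 0.79 ± 0.23 (limma adjusted p = 0.0097 and 0.0151). Their levels overlapped: Ndufb9 measured 179, 255 and 786 against 268, 517 and 1040, and Ndufa9 measured 47.1, 69.8 and 207 against 82.2, 148 and 199. Also called lower were Ndufs1, Ndufb11, Ndufa10, Atp5h, Atp5b, Atp5o, Cox6a2 and Cox8b. Negative folds were found for 74 of 84 members, with a median of -0.37 against 0.04 for all genes.

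The loaded PTH-alendronate limb that stood apart was replicate 1, whose mean member level was 8.43 against 7.197 to 7.451 in the other 6 limbs, on a log2 scale. Its skeletal muscle list was also the highest of the group, at 67100 CPM. Without this library 28 members were called lower and 2 higher, and the vehicle mice of the same fit had 6 lower. Without the libraries with lymphoid markers 18 were lower and 1 higher, and 11 of the 12 were kept. The fit of this treatment's limbs alone with a replicate block kept 1 of 12, with 1 higher and 0 lower. Shares of all genes called are not given for these refits, so their counts are no result about the members in particular.

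Ndufa4l2 moved the other way. It is a paralogue of the complex IV subunit Ndufa4 that is induced by hypoxia-inducible factor and lowers complex I activity in other cell types. It reached the threshold level in cartilage alone, at 12.6, 38.7 and 30.99 CPM at 0, 1 and 2 weeks, and was at most 4.01 CPM in the other tables. In PTH-alendronate mice at 1 week it measured 57.2, 101 and 154 in loaded limbs and 0.747, 19.2 and 43.4 in contralateral limbs. The ranges did not overlap, and Ndufa4l2 rose by 2.70 ± 0.44 (limma adjusted p = 1.64e-05), or by 2.07 (limma adjusted p = 5.45e-06) without the libraries with lymphoid markers, one of which held the value of 0.747. In vehicle mice it measured 61.99, 78.0 and 90.9 against 8.97, 35.8 and 66.1, a log2 fold of 1.27 ± 0.42 that did not pass (limma adjusted p = 0.134). PTH and alendronate mice gave 0.53 ± 0.40 and 0.93 ± 0.40 (limma adjusted p = 0.538 and 0.171). At 2 weeks its folds were 0.70, 1.27, 0.88 and 1.303 in vehicle, PTH, alendronate and PTH-alendronate mice, none past the threshold (limma adjusted p of 0.198 or more).

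PTH mice and alendronate mice had 0 of 84 members called after 1 week in limma, where 0.679% and 2.04% of all genes were called lower and 2.38% and 4.46% higher. Unadjusted p below 0.05 was reached by 4 and 10 members. In PTH mice edgeR and DESeq2 called 0, 49 members had a positive fold and the median was 0.03. In alendronate mice 65 had a negative fold, the median was -0.17, DESeq2 called 3 lower and 1 higher, and the fit of their limbs alone with a replicate block gave 6 lower and 1 higher. The difference between PTH and vehicle mice in the response to loading was positive for 77 of 84 members, with a median of 0.42 against 0.07 for all genes. None passed: 23 had an unadjusted p below 0.05, and Sdha, with the smallest p, differed by 0.80 ± 0.21 (limma adjusted p = 0.999). For alendronate and PTH-alendronate 0 members passed either, with 2 and 1 at an unadjusted p below 0.05 and medians of 0.24 and 0.03 (0.0136% of all genes were called higher for PTH-alendronate). EdgeR and DESeq2 called 0 members in the 3 differences.

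The contralateral limbs differed between treatments as well. In PTH mice at 1 week 76 of 84 members were lower than in the contralateral limb of vehicle mice (median -0.51 against -0.11 for all genes). Cox4i1, a nuclear subunit of complex IV, had a lowest, median and highest level of 307, 568 and 667 in 8 PTH limbs and of 621, 869 and 986 in 7 vehicle limbs. Its ranges met only at the edges, and it fell by 0.76 ± 0.15 on the log2 scale (limma adjusted p = 0.0165). Ndufv1, the NADH-binding core subunit of complex I, measured 88.9, 130 and 179 against 169, 290 and 339 and fell by 0.96 ± 0.19 (limma adjusted p = 0.0165). Sdha measured 225, 259 and 340 against 311, 465 and 584 and fell by 0.72 ± 0.15 (limma adjusted p = 0.037).

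These 3 were members of a group of 7 genes called lower in all, 0.0475% of those tested. The vehicle contralateral limbs serve in both this contrast and the loading contrast of vehicle mice. Without the libraries with lymphoid markers 12 members were lower, the 3 among them. Alendronate and PTH-alendronate contralateral limbs gave 0 called members in limma, edgeR and DESeq2 (1 lower for PTH-alendronate without the libraries with lymphoid markers), with 34 and 9 at an unadjusted p below 0.05, where 0.00679% and 0.0679% of all genes were called lower. In the loaded limbs PTH, alendronate and PTH-alendronate gave 0 called members against vehicle at 1 week in the 3 tools, with 8, 10 and 18 at an unadjusted p below 0.05 (0.0136% of all genes were called higher and 0.0136% lower for PTH-alendronate).

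Muscle genes moved with the members in these libraries. Cox6a2 (chromosome 7, 128205435 to 128206387, minus strand, mm10), the muscle isoform of subunit 6a, had a lowest, median and highest level of 38.6, 1230 and 2394 in contralateral limbs of vehicle mice and of 22.8, 27.3 and 376 in their loaded limbs. The ranges overlapped, the contralateral limbs spread widely, and the log2 fold was -3.11 ± 0.95 (limma adjusted p = 0.0944). Cox7a1 measured 1.38, 261 and 641 against 4.40, 8.40 and 37.6 (-2.73 ± 1.03, limma adjusted p = 0.226). Cox8b measured 6.88, 261 and 415 against 0, 4.58 and 111.8 (-3.58 ± 1.05, limma adjusted p = 0.071).

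The widely expressed partners differed little between the same limbs. Cox6a1 measured 566, 855 and 1056 in contralateral and 824, 900 and 969 in loaded limbs (0.13 ± 0.14). Cox7a2 measured 641, 754 and 815 against 527, 614 and 777 (-0.23 ± 0.13), and Cox8a 280, 326 and 526 against 205, 361 and 455 (-0.08 ± 0.21). None of the 3 passed (limma adjusted p of 0.619 or more). In PTH-alendronate mice Cox6a2 and Cox8b fell by 3.70 ± 1.00 and 3.31 ± 1.099 on the log2 scale (limma adjusted p = 0.0098 and 0.0403). Cox6a1 and Cox8a were at -0.02 ± 0.14 and -0.19 ± 0.22 there (limma adjusted p = 0.954 and 0.652).

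The skeletal muscle list of 21 genes summed to between 319 and 75660 CPM (median 29460) in vehicle contralateral limbs and to between 98.4 and 24550 (median 267) in their loaded limbs. Of its 20 genes tested, 20 had a negative fold with loading in vehicle mice, 2 were called lower and the median was -3.66. In PTH-alendronate mice 4 were called lower, with a median of -3.38. The PTH contralateral limbs summed to between 275 and 10330 (median 1202). Adipocyte markers were lower as well (6 of 12 called in vehicle mice) and fibroblast markers higher (6 of 8 called). In bulk tissue fewer cells of a type and less RNA per cell cannot be told apart.

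Within groups, the member level was set against the muscle list in 9 tables. Over the 59 cartilage libraries at 1 week, deviations from the group mean of the member level, computed without the 3 muscle isoforms, and of the muscle list had a Pearson r of 0.688 and a Spearman rho of 0.59, and r was 0.608 without the 2 libraries farthest out. In the other 8 tables r ran from -0.284 (cancellous bone at 1 week, rho -0.353) to 0.691, and it was -0.0424 in cancellous bone and 0.54 in cartilage (rho 0.193) before loading. Without the 2 libraries farthest out, r before loading fell to 0.161 in cartilage and from 0.635 to 0.306 in cortical bone. In cortical bone at 1 week it rose from 0.361 to 0.403. Both limbs of a mouse are among these points, and both measures come from the same library. With the muscle level as a term in the fit, vehicle mice kept 0 of 3 calls, and 68 of 84 members still had a negative fold (Ndufs1 -0.39, limma adjusted p = 0.652). PTH-alendronate mice kept Sdha (-0.59, limma adjusted p = 0.0156) and Ndufa4l2 (2.80, limma adjusted p = 4.55e-05), 2 of 12, and the contralateral PTH contrast kept 0 of 3. The muscle list itself differed widely between the limbs compared, so this term takes up part of each contrast. Lost calls therefore do not separate muscle level from loading or treatment, and the part of muscle was not tested.

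**Figure D2:**
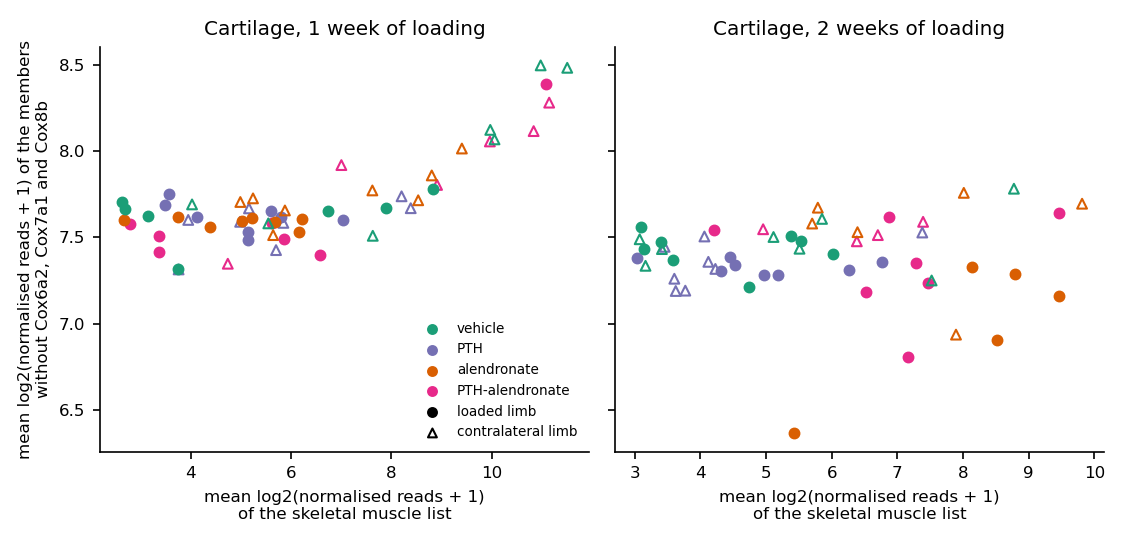
Mean log2 level of the members without the 3 muscle isoforms (vertical axis) against mean log2 level of the skeletal muscle list (horizontal axis) in each cartilage library at 1 and 2 weeks. Colour marks treatment, filled circles are loaded and open triangles contralateral limbs. At 1 week libraries high in muscle genes tend to be high in members, with a Pearson r of 0.774 over the plotted points (0.688 within groups). At 2 weeks the plotted points show almost no slope, with r of 0.016 (0.247 within groups).

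Promoter sequence is shown for a member that kept its call with the muscle term (Sdha), a second that fell in the same contrast (Ndufa9), and a muscle and a widely expressed isoform of 1 subunit (Cox8b and Cox8a). Sequences are from RefSeq on GRCm38.p6, from 250 bases before to 50 after the start, and are written 5′ to 3′ on the gene's own strand, here the minus strand in all 4. Capitals mark motif letters found by search on both strands: TGCGCA (NRF1 core) in Sdha and Ndufa9, AAGATGG (YY1 core) in Ndufa9, CTTCCGG (the reverse complement of the ETS core CCGGAAG) in Cox8a and CAGCTG (an E-box of the form bound by myogenic factors) in Cox8b. Their positions are chr13:74350191-74350490, chr6:126849095-126849394, chr19:7217567-7217866 and chr7:140900397-140900696, in the order printed.
Sdha: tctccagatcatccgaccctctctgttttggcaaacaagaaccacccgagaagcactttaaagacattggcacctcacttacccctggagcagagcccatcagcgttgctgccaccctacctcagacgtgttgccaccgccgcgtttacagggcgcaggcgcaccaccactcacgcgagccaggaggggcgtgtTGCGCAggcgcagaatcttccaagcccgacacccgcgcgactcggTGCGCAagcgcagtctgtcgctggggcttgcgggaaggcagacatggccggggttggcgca
Ndufa9: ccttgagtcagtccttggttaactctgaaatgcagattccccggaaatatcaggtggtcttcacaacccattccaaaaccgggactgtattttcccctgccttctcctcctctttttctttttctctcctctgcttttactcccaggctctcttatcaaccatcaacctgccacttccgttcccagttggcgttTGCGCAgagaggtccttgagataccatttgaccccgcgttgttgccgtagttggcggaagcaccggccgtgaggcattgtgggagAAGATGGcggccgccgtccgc
Cox8a: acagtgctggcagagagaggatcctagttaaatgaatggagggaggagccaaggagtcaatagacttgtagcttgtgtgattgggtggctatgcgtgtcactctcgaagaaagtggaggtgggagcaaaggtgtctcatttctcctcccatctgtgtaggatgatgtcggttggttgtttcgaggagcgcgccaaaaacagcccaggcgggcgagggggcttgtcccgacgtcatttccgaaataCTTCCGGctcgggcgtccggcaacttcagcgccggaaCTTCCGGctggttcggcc
Cox8b: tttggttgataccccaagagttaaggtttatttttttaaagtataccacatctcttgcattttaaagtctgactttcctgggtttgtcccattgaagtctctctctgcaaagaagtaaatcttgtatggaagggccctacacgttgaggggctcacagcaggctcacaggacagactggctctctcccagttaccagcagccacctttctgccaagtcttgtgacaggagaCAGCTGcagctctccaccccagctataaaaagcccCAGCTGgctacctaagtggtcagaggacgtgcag

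Over the 70 members with a promoter in the table, TGCGCA occurred in 22.9%, against 8.06% of all 27025 promoters of the same length. CCGGAAG occurred in 22.9% against 9.12%, AAGATGG in 12.9% against 6.48%, and AAGGTCA, a motif of the oestrogen-related receptors, in 10% against 4.66%. CAGCTG occurred in 7.14% against 16.1%. These letters describe the windows and show no binding. TGCGCA and CAGCTG read the same on both strands, and no motif contains another.

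At 2 weeks loading in vehicle mice was followed by no called member in cartilage; whether this differs from 1 week was not tested. Of 81 members 0 were called and 37 had a positive fold (median -0.03), with 2 at an unadjusted p below 0.05, and 0.244% of all genes called lower. DESeq2 called 1 lower, and the fit of vehicle limbs alone with a replicate block gave 2 lower. In PTH and PTH-alendronate mice limma again called 0, with 2 and 5 at an unadjusted p below 0.05. Their medians were -0.05 and -0.23.

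Alendronate mice had 7 members lower in the loaded limb at 2 weeks and 0 higher, where 2.4% of all genes were called lower. Ndufb3, an accessory subunit of the complex I membrane arm, measured 73.7, 228, 100, 208 and 236 in the 5 loaded limbs and had a lowest, median and highest level of 248, 535 and 879 in 6 contralateral limbs. All loaded limbs were lower than all contralateral limbs, and Ndufb3 fell by 1.73 ± 0.40 on the log2 scale (limma adjusted p = 0.00552). Ndufa6, an accessory subunit of the complex I matrix arm, measured 166, 206, 110, 290 and 296 against 243, 422 and 563, with overlap, and fell by 0.98 ± 0.24 (limma adjusted p = 0.00791).

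Cox6b1, a subunit on the outer face of complex IV, measured 212, 296, 108, 321 and 271 against 219, 536 and 651 and fell by 1.06 ± 0.28 (limma adjusted p = 0.0125). Atp5f1, subunit b of the ATP synthase stalk, measured 24.9, 64.95, 0, 46.6 and 37.8 against 24.02, 161 and 195 and fell by 2.44 ± 0.66 (limma adjusted p = 0.0183). Without replicate 3, the limb at 0, the log2 fold of Atp5f1 was -1.35 (limma adjusted p = 0.161). Both overlapped between limbs. Ndufa1, Cox7a2 and Ndufb5 were the other 3 called, by -1.58 ± 0.46, -0.70 ± 0.22 and -0.95 ± 0.31.

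Negative folds were found for 72 of 81 members (median -0.41 against 0.04 for all genes), among them 12 of 12 of complex IV without the muscle isoforms and 13 of 13 of complex V. Core subunits of complex I were split, 4 of 7 negative. The skeletal muscle list had a median fold of 0.82 with loading (0 of 21 called), and with its level as a term 7 of 7 calls were kept. The part of muscle in these folds was not tested. The fit of this treatment's limbs alone with a replicate block, over 4 pairs, kept 0 of 7. Leaving out 1 library at a time gave 3 to 17 calls, the fewest without loaded replicate 3 and the most, all lower, without contralateral replicate 2. The difference from vehicle mice in the response to loading was negative for 70 of 81 members and passed for 0 (13 at an unadjusted p below 0.05, Cox7a2 -0.86 ± 0.28, limma adjusted p = 0.552).

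Loaded limbs of alendronate mice differed from loaded limbs of vehicle mice at 2 weeks, with 12 members lower and 3 higher, where 5.69% and 4.84% of all genes were called. The 3 higher members were the muscle isoforms. Cox6a2 measured 190, 666, 29.4, 221 and 262 in 5 alendronate limbs and had a lowest, median and highest level of 9.07, 22.7 and 54.3 in 8 vehicle limbs, with 1 alendronate limb within the vehicle range. It rose by 2.86 ± 0.67 (limma adjusted p = 0.00408). Cox7a1 measured 31.6, 42.4, 51.4, 51.6 and 30.0 against 2.36, 5.38 and 19.9, without overlap, and rose by 2.58 ± 0.76 (limma adjusted p = 0.0221). Cox8b rose by 2.61 ± 0.90 (limma adjusted p = 0.0492). The skeletal muscle list moved with them: 18 of 21 genes were higher and 0 lower, with a median fold of 4.10.

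**Figure D3:**
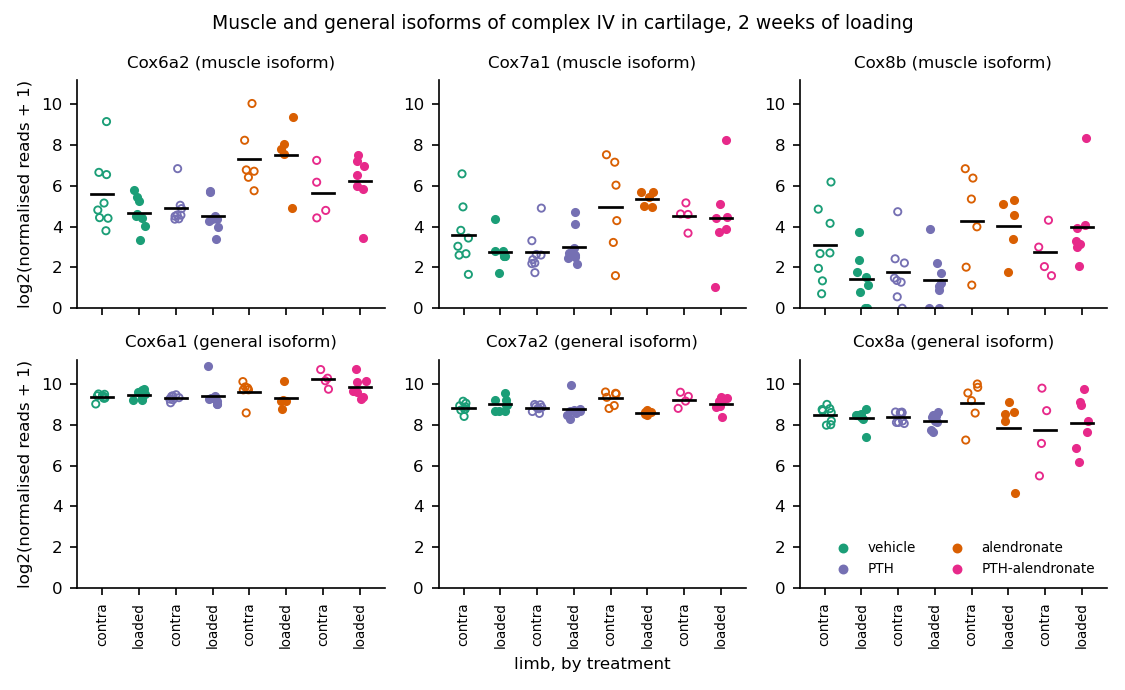
Levels of the muscle isoforms Cox6a2, Cox7a1 and Cox8b (top) and of their widely expressed partners Cox6a1, Cox7a2 and Cox8a (bottom) in cartilage at 2 weeks, as log2 of normalised reads + 1, by treatment and limb. Points are libraries and lines are group means. The muscle isoforms are higher in loaded limbs of alendronate mice than of vehicle mice (log2 folds of 2.58 to 2.86), and the partners are not (-0.53 to -0.16).

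The members that fell in the same contrast belonged to complexes I, II, IV and V. Cox4i1 measured 353, 272, 176, 249 and 229 in alendronate limbs and had a lowest, median and highest level of 417, 542 and 705 in vehicle limbs. The groups did not overlap, and Cox4i1 fell by 1.05 ± 0.26 on the log2 scale (limma adjusted p = 0.00591). Ndufa9 measured 46.9, 45.9, 0, 32.7 and 34.7 against 64.8, 79.6 and 98.6, also without overlap, and fell by 2.06 ± 0.51 (limma adjusted p = 0.0068). Without replicate 3, the limb at 0, the log2 fold of Ndufa9 was -0.99 and did not pass (limma adjusted p = 0.113).

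Ndufb11 fell by 1.44 ± 0.37 (limma adjusted p = 0.00908), and by 1.44 ± 0.34 in loaded PTH-alendronate limbs (limma adjusted p = 0.00955), the only member called there, where 1.7% of all genes were called lower. Sdha and Atp5b fell by 0.62 ± 0.20 and 0.82 ± 0.27 in alendronate limbs (limma adjusted p = 0.0338 and 0.0403). With muscle level as a term 8 of 15 calls were kept, the muscle isoforms not among them, and 11 members were lower. The muscle list differed between these groups, so lost calls do not separate muscle level from treatment. Without loaded alendronate replicate 3 the loaded contrasts of cartilage held 5 calls in place of 16.

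In contralateral limbs at 2 weeks 2 members were higher in alendronate mice (2.28% of all genes, near the share of members) and 0 lower. They were Ndufa5 (0.98 ± 0.29, limma adjusted p = 0.033) and Ndufb3 (1.18 ± 0.36, limma adjusted p = 0.0388). In PTH-alendronate mice 4 were higher and 2 lower (0.731% and 0.527% of all genes). Ndufb4, Ndufb2, Cox6c and Ndufa5 rose by 0.83 to 1.22, and Ndufab1, the mitochondrial acyl carrier protein, and Ndufs8 fell by 2.04 ± 0.54 and 2.21 ± 0.60. Without 1 of the 4 PTH-alendronate contralateral libraries, replicate 3, 0 of these 6 were kept, and without replicate 7, 1 of 6. Library codes at 2 weeks followed alendronate exactly in cartilage and in lymph node, so alendronate and whatever the code series stands for cannot be told apart there. In bone at 2 weeks the alendronate and PTH-alendronate libraries had codes in A or B. Vehicle and PTH libraries had codes in C or D or number codes. The code series term for bone joined all letter codes, so it does not separate A and B codes from alendronate.

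In cortical bone calls were made at 1 week in the contralateral limb. Alendronate mice had 17 of 82 members higher than vehicle mice and 0 lower, where 4.06% of all genes were called higher and 6.11% lower. Sdhb, the iron-sulphur subunit of complex II, measured 226, 194, 124, 145 and 124 in the 5 alendronate limbs and 54.1 to 207 (median 102.1) in 6 vehicle limbs. Ndufb2 measured 74.5, 70.2, 90.4, 125 and 91.5 against 16.8 to 67.1 (median 32.97), without overlap. Cox4i1 measured 544, 428, 274, 225 and 247 against 123 to 261 (median 205).

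Fitted with the code series as a term, Sdhb rose by 1.68 ± 0.31 (limma adjusted p = 0.00425), Cox4i1 by 1.28 ± 0.27 (limma adjusted p = 0.00603) and Ndufb2 by 1.73 ± 0.39 (limma adjusted p = 0.00771). Cox6c and Ndufb4 rose by 1.402 ± 0.35 and 1.25 ± 0.32. The others called included Ndufb9, Ndufa8, Uqcrfs1, Cox5a, Cox6b1, Atp5d, Atp5o and Atp5k. Complex IV without the muscle isoforms had 4 of 12 called and 12 of 12 positive, complex V had 4 of 13 called, complex I 7 of 35 and complexes II and III 1 each. The members' median was 0.59, against 0.10 for all genes. The skeletal muscle list had 0 of 21 called (median 0.64), and with its level as a term 17 of 17 calls were kept. Osteoclast markers moved with the members: 3 of 7 were called higher (median 0.99), and their sum was 9893, 8171, 6430, 4670 and 2170 CPM in the alendronate limbs and 2281 to 4044 in the vehicle limbs. Chondrocyte markers had 2 of 10 higher (median 1.49). The part of the muscle, osteoclast and chondrocyte lists was not tested.

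These calls depended on how the code series entered the fit. Of the 5 alendronate limbs 4 had letter codes and 1 a number code, and the 6 vehicle limbs all had number codes. Without the term 0 of the 17 were called (Sdhb 0.71, limma adjusted p = 0.565), and with the libraries under 100000 reads added 0. The contrast of PTH-alendronate with vehicle contralateral limbs had 4 members higher and 0 lower (0.2% of all genes higher): Uqcr11 (1.22 ± 0.28, limma adjusted p = 0.0248), Ndufb2, Cox8a and Ndufb10. Loading itself called 0 of 82 members in vehicle mice, where 0.126% of all genes were called higher and 0.00665% lower, and edgeR also called 0. There 75 were positive, 21 had an unadjusted p below 0.05, the median was 0.41 against -0.03 for all genes, and Ndufb2 had the smallest p (1.23 ± 0.35, limma adjusted p = 0.182). In PTH and alendronate mice 0 passed in limma or edgeR, with 1 and 7 at an unadjusted p below 0.05 (0.366% of all genes were called higher and 0.00665% lower in PTH mice).

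At 2 weeks limma called 0 of 80 members in the 13 cortical contrasts, where at most 0.0527% of all genes were called higher and 0.0922% lower. The members leaned higher in loaded limbs of alendronate and PTH-alendronate mice than in those of vehicle mice. There 68 and 70 were positive, the medians were 0.65 and 0.98 against 0.33 and 0.39 for all genes, and 25 and 36 had an unadjusted p below 0.05. The widely expressed Cox6a1 had the lowest fold of all members in both (-1.54 ± 0.44, limma adjusted p = 0.164, and -0.93 ± 0.47, limma adjusted p = 0.36). EdgeR called 1 higher and 2 lower, and 1 higher and 1 lower, and 0 higher and 4 lower for PTH. The member level followed the muscle list within these groups, with a Pearson r of 0.691 and a Spearman rho of 0.76 over 52 libraries (r of 0.669 without the 2 farthest out). Its part in the medians was not tested. Alendronate and the A and B codes cannot be told apart in these contrasts.

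In cancellous bone limma and edgeR called 0 members in every contrast at 1 and 2 weeks, with at most 18 of 80 at an unadjusted p below 0.05. The largest shares of all genes called in any of these contrasts were 0.0806% higher and 0.175% lower. The smallest adjusted p was for Ndufv1 in loaded limbs of PTH-alendronate against vehicle mice at 2 weeks (1.97 ± 0.50, limma adjusted p = 0.0616). Groups there held 3 to 9 libraries, and PTH-alendronate mice at 1 week had 1 loaded library and were not tested for loading.

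**Figure D4:**
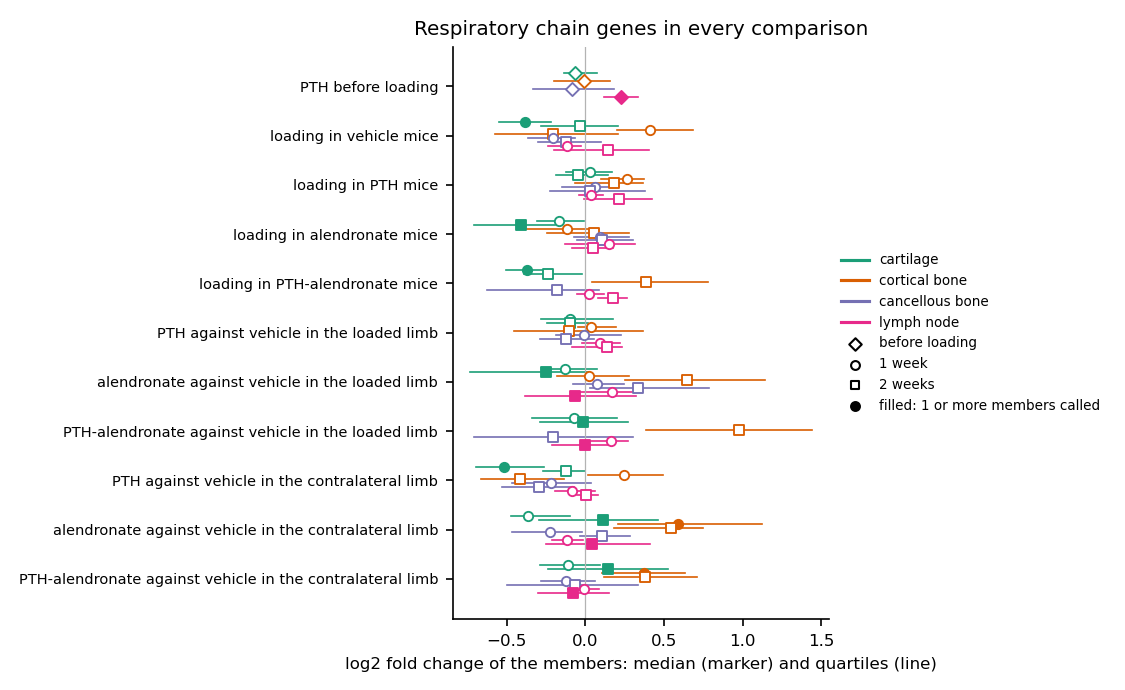
Median log2 fold of the members (points) with quartiles (lines) in each comparison, coloured by tissue, with diamonds, circles and squares for 0, 1 and 2 weeks. Filled points mark comparisons with 1 or more members called. Most medians lie between -0.5 and 0.5, with the highest, 0.98, in cortical bone without a called member.

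In lymph node at 1 week limma and edgeR called 0 of 79 members in every contrast, with up to 23 at an unadjusted p below 0.05 and at most 0.39% of all genes called higher and 0.617% lower. At 2 weeks the node of the loaded side in alendronate mice had 14 members higher and 15 lower than in vehicle mice, out of 80, where 9.59% of all genes were called higher and 19.4% lower. Members were called lower in a share near that of all genes; for the higher calls the share of members was the larger one, and this difference was not tested. Atp5d, subunit delta of the ATP synthase, had a lowest, median and highest level of 94.7, 193 and 266 in 8 alendronate nodes and of 348, 495 and 1155 in 7 vehicle nodes and fell by 1.49 ± 0.22 (limma adjusted p = 1.76e-06). Atp5f1 measured 85.6, 117 and 284 against 20.1, 50.4 and 57.4 and rose by 1.495 ± 0.23 (limma adjusted p = 2.86e-06). Neither pair of ranges overlapped.

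Ndufb11 measured at most 221 (median 200) against 266, 318 and 437 and fell by 0.86 ± 0.13 (limma adjusted p = 3.61e-06). Cox7b, a complex IV subunit, measured 365, 476 and 887 against 26.7, 231 and 265 and rose by 1.54 ± 0.26 (limma adjusted p = 1.32e-05). Atp5j, coupling factor 6 of the ATP synthase, measured 181, 253 and 301 against 0, 75.9 and 90.5 and rose by 2.50 ± 0.48 (limma adjusted p = 9.42e-05). These ranges did not overlap either, so subunits of the same complex stood apart in opposite directions.

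Complex V had 3 members higher and 1 lower, and complex IV 4 and 2. Complex I had 4 of 28 accessory subunits higher and 2 lower, and 0 and 4 of 7 core subunits. Complex II had 0 higher and 2 lower of 3. Of the genes named throughout, Sdha (-0.35 ± 0.09), Uqcrc1 (-1.97 ± 0.49), Cox4i1 (-0.98 ± 0.28) and Ndufs1 (-0.45 ± 0.15) fell and Cox8a rose by 1.102 ± 0.28 (limma adjusted p of 0.0206 or less). PTH-alendronate nodes had 4 higher and 3 lower (2.48% and 1.54% of all genes): Cox7b, Atp5j, Atp5f1 and Uqcrfs1 rose by 0.69 to 1.77, and Ndufb11, Ndufb8 and Atp5d fell by 0.44 to 0.74. Both contrasts share the vehicle nodes.

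On the contralateral side alendronate nodes had 6 higher and 3 lower (5.42% and 4.13% of all genes). The shares of members called were near those of all genes, so these counts are no result about the members in particular. Atp5d fell by 1.04 ± 0.23 (limma adjusted p = 0.00164), Ndufb11 by 0.55 ± 0.14 and Ndufv2 by 0.52 ± 0.14, while Ndufa3 and Atp5j2 rose by 0.59 ± 0.15 and 0.68 ± 0.18. PTH-alendronate nodes had 1 higher and 3 lower there (3.29% and 2.06%). Without the node with neutrophil genes the contralateral counts were 5 and 4, and 0 and 2. Without loaded alendronate replicate 8, a library of 153802 reads, the loaded alendronate contrast had 18 higher and 16 lower. Loaded against contralateral nodes gave 0 called members in the 4 treatments in limma, with 27, 28, 7 and 7 at an unadjusted p below 0.05. EdgeR called 4 higher in vehicle and 1 higher in PTH mice. No figure for all genes stands beside these edgeR and unadjusted counts, so they are no result about the members in particular.

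Base composition went with the direction in lymph node. GC content of the last 500 bases of the transcript, the stretch nearest the 3' end reads, had a median of 41.9% in the 14 members higher in loaded-side alendronate nodes, 52.9% in the 15 lower and 47% in all members. Across 79 members the Spearman rho between GC and log2 fold was -0.34, and across 12817 genes -0.361. In PTH-alendronate nodes the medians were 38.8% and 52.4%, with rho of -0.195 and -0.31. Genes are not independent replicates, and the part of GC content in these folds was not tested.

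**Figure D5:**
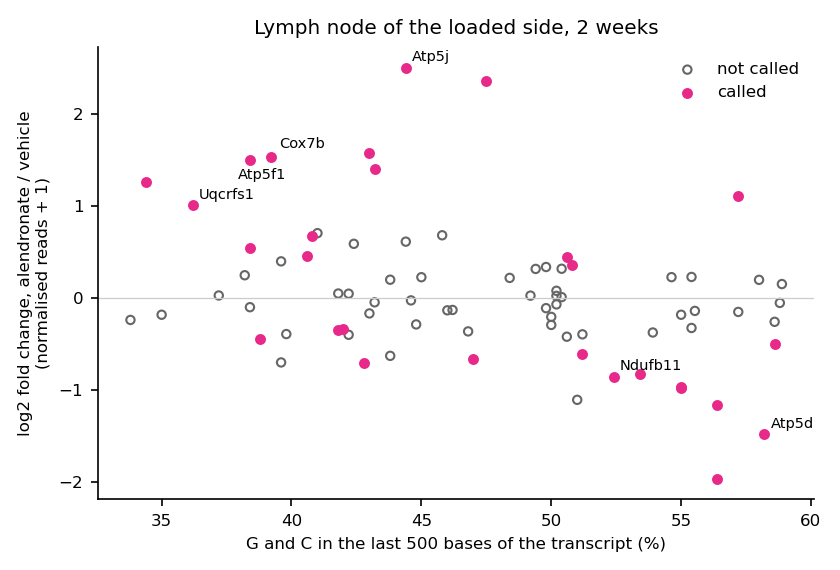
GC content of the last 500 bases of each member's transcript (horizontal axis, percent) against log2 fold of alendronate over vehicle in the lymph node of the loaded side at 2 weeks (vertical axis). Filled points passed the test, and the 6 members of smallest p are named. Called members above 0 lie mostly at lower GC (median 41.9) than those below 0 (median 52.9).

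Other mitochondrial genes were read from lists that do not overlap the members. In vehicle cartilage at 1 week the 15 genes of the TCA cycle all had negative folds with loading (median -0.52, 0 called), fatty acid oxidation had 0 of 15 called (-0.41), and mitochondrial carriers and porins had 2 of 11 lower (-0.45). Other respiratory chain and assembly genes had 1 of 27 lower (-0.17), and mitochondrial biogenesis regulators had 0 of 13 called (-0.31). In PTH-alendronate mice the TCA cycle, other respiratory chain and carrier lists had 1, 2 and 1 lower. In alendronate contralateral cortical bone at 1 week 4 of 15 TCA cycle genes, 2 of 11 carriers and 2 of 15 fatty acid oxidation genes were higher, with 0 lower. In loaded-side alendronate lymph node at 2 weeks TCA cycle genes had 3 lower and 0 higher, fatty acid oxidation 4 and 1, other respiratory chain genes 6 and 2 and carriers 3 and 1. A large share of all genes was called lower in that contrast, as given above, so these counts are no result about the lists in particular.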

How the data were processed

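RNA from cartilage, cortical bone, cancellous bone and lymph node was sequenced as 3' RNA-seq. Per the submitters' processing notes, the tools included Trimmomatic 0.39, STAR and edgeR, with the build mm10. The deposited values are a normalised signal, read counts that the authors divided by a size factor per library. Whole read counts were recovered from the deposited signal for 100% of values (tolerance 0.01). Each of the 12 tables was scaled separately, so comparisons stay within a table.

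Log2 of the deposited signal plus a pseudocount of 1 was fitted with limma 3.58.1 (trend, R 4.3.3) on genes that reached 1 CPM of the recovered reads in a number of libraries equal to the smallest tested group. Animal, inferred from codes in the titles, was a random block, and limb or treatment and, in loaded bone, the code series were fixed terms. Adjustment ran over all genes of a comparison (threshold 0.05, 106 comparisons). Where nothing states separate animals, p-values measure the spread between these samples. EdgeR 4.0.16 on the recovered reads and, in cartilage, DESeq2 1.42.0 were alternatives. Of 549 samples, 505 had values, 44 were not analysed here, and 28 libraries under 100000 reads were left out of the tests. The limb label of 1 library disagreed with its code, and the label was kept. Entries that name no gene (27) took at most 0.295% of reads.

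The members, gene lists and tests were chosen with earlier results of these data known. Named throughout are Ndufs1, Sdha, Uqcrc1, Cox4i1, Atp5b, Cox4i2, Ndufa4l2 and the 3 isoform pairs, and in each comparison the 5 called members of smallest p (3 of smallest p if none was called). Other members were named after their values were seen. A result that the rule would name is not reported here. Limbs with the same replicate number shared an animal code in all pairs but 1 (PTH-alendronate at 1 week, 5 of 6). Correlations of their deviations ran from -0.296 to 0.393. On simulated counts for vehicle loading in cartilage at 1 week (14570 genes, 100 changed at each size), 30% of genes changed by a log2 fold of 1 and 100% of those changed by 2 were recovered, and 7.14% of the calls were false. The simulation gave every gene the same dispersion, held no animal effect and changed only genes above a minimum mean level. Its rates do not cover genes that spread more widely between limbs, such as the muscle isoforms.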

Additional observations from a re-analysis of the deposited data

Results flagged for a closer look

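Mean member levels (log2 scale) were examined in 61 groups of 4 to 10 libraries, and in 5 groups 1 library stood apart from the others. Chance flags about 1 in 20 groups. In cartilage at 1 week, loaded PTH-alendronate replicate 1 stood at 8.43 against 7.197 to 7.451 in the other 6 libraries, and its skeletal muscle list averaged 11.09 against a median of 4.497. In cortical bone at baseline, left-limb PTH replicate 3 stood at 6.774 against 7.216 to 7.67, with a muscle mean of 5.34 against 9.882. In both, muscle genes stood apart in the same direction as the members, and their part was not tested. The cortical library also held neutrophil and marrow genes at 73390 CPM, against 10140 to 33960 in the other PTH libraries. Its osteoblast genes summed to 1924 CPM, against 2940 to 6565. Its members summed to 11680 CPM, within the range of the others (10590 to 14450).

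In cartilage at 2 weeks, contralateral alendronate replicate 2 stood at 6.909 against 7.432 to 7.726 and had 659379 reads. Its muscle mean was 7.892 against a median of 6.392, opposite in direction to its members. In lymph node at 2 weeks, loaded-side alendronate replicate 8 stood at 6.807 against 7.444 to 7.713 and had 153802 reads. Its muscle mean was 2.566 against a median of 1.836, again opposite to its members. In lymph node at 1 week, loaded-side PTH-alendronate replicate 3 stood at 7.853 against 7.649 to 7.719 and had 1732086 reads. Its muscle mean was 2.181 against a median of 1.806, in the direction of its members.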

How the results depend on the processing

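Of 744 refits of single named members under another setting, 604 kept direction and side of the threshold, 140 kept direction but lost the call and 0 reversed. Counts of called members moved more, and the causes were not tested. No share of all genes called stands beside these counts, so a moved count cannot be set apart from a change over all genes. Settings without marker libraries or libraries that stand apart, and those on the code series, were chosen after seeing the data. They are totals of higher and lower over the contrasts of a tissue.

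Vehicle loading in cartilage at 1 week (3) gave 10 with DESeq2, 30 with array weights, 5 with edgeR, 1 without the low-value filter, 1 without the animal block, 0 with the replicate block (here and below fitted on the limbs of 1 treatment alone), 0 with the muscle term, 10 without libraries holding another tissue's markers and 0 with both. Alendronate loading at 1 week (0) gave 4 with DESeq2, 12 with array weights, 7 with the replicate block and 1 without the marker libraries. PTH-alendronate loading at 1 week (12) gave 7 with DESeq2 and with edgeR, 1 with the replicate block, 2 with the muscle term, 19 without the marker libraries and 2 with both. Without loaded PTH-alendronate replicate 1 the vehicle and PTH-alendronate counts were 6 and 30.

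At 2 weeks, loading in cartilage gave, for vehicle (0), 1 with DESeq2, 7 with array weights and 2 with the replicate block, for PTH (0) 1 with array weights, for alendronate (7) 13 with DESeq2, 18 with array weights and 0 with the replicate block, and for PTH-alendronate (0) 1 with all libraries. Treatment in loaded cartilage (16) gave 25 with DESeq2, 50 with array weights and 32 with quantile scaling. Treatment in contralateral cartilage (11) gave 46 with DESeq2, 53 with array weights, 17 with edgeR, 7 with the muscle term, 22 without the marker libraries and 6 with both. The change of the loading response in cartilage (0) gave 2 with array weights.

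PTH before loading in cartilage (0) gave 1 with DESeq2, 4 with array weights, 1 in right limbs alone and 1 without the marker library, and in cancellous bone (0) 1 with array weights. In lymph node (1) it gave 18 with array weights, 4 without the 2 vehicle nodes that stand apart, 2 with edgeR, without the animal block and with quantile scaling, and 0 in left limbs alone, in right limbs alone and without the low-value filter.

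Treatment in contralateral cortical bone (21) gave 0 with all libraries, 53 with array weights, 5 with number codes alone (the alendronate arm then holds 1 library, so its 0 says nothing), 1 without the code series term and 33 with quantile scaling. In loaded cortical bone (0) it gave 9 with edgeR, vehicle loading at 2 weeks (0) gave 1 with edgeR, and loading in the other treatments (0) 1 with number codes alone. In cancellous bone treatment (0) gave 2 with the muscle term in loaded and 5 with array weights in contralateral limbs.

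In lymph node loaded-side treatment (36) gave 78 with array weights, contralateral treatment (13) 7 with all libraries, 69 with array weights, 28 with edgeR and 28 with quantile scaling. Vehicle loading at 2 weeks (0) gave 6 with array weights and 4 with edgeR, and loading in the other treatments (0) 31 with array weights and 1 with edgeR.

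Leaving out 1 library at a time gave 3 to 17 for alendronate loading in cartilage at 2 weeks, 5 to 20 for treatment in loaded and 5 to 18 in contralateral cartilage, and 11 to 24 in contralateral cortical bone (11 without alendronate replicate 2). It gave 0 to 2 for treatment in loaded cancellous bone, 0 to 1 for loading in the other treatments there and 0 to 2 for the change of the loading response in cortical bone. In lymph node it gave 36 to 48 on the loaded side, 13 to 36 on the contralateral side and 0 to 10 for loading in the other treatments. The highest of these 3 ranges came without loaded-side alendronate replicate 8. The number of libraries, 3 to 9 per group in bone, limits what could be called.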
